A study of Mus musculus with 28 samples.

Results

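The sites described here are 1094 positions of captured methylated DNA that stand in one summit list and have no counterpart in its partner list. They were chosen by measured values, namely a called summit in the deposited MBD list whose name carries D1, on an assembled mouse chromosome, and no called summit of the WT-named MBD list within 5 kb. Numbers and distances between these 2 lists therefore describe the choice and are not findings. They make up 0.864% of the 126631 summits of the D1-named list (1094 of 126631), and are called D1-only sites. The same rule turned round gave 14599 WT-only sites, 9.35% of the 156188 summits of the WT-named list. With the WT-named list cut to as many of its highest summits as the D1-named list holds, the numbers were 5447 D1-only and 5448 WT-only sites. The 125537 D1-named summits that do have a WT-named summit within 5 kb are called shared D1 summits.

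All libraries came from male neural stem cells of the strain C57BL/6 x FVB/N, grown from E14.5 mouse brain with EGF and bFGF. The cells were either Smchd1MommeD1/MommeD1 (Smchd1 null) or Smchd1 wild-type. The series holds 28 libraries. Methylated DNA (MBD-seq) was captured in 3 libraries per genotype, H3K4me3, H3K27me3 and Smchd1 were immunoprecipitated in 2 libraries per genotype, and each genotype had 1 whole cell extract. Ctcf was immunoprecipitated in 2 libraries each of untransduced null cells, of wild-type cells that carried a non-silencing shRNA and of untransduced wild-type cells, and the wild-type cells with Ctcf shRNAs that served as the Ctcf control also gave 2 libraries. The labels number the libraries but do not say which came from separate embryos or cultures. Sox2, Nes and Olig2, which mark neural stem cells, each had H3K4me3 within 2 kb of a start in both the null and the wild-type list. No marker of another lineage was set beside these 3, so they do not settle the cell type, which is taken from the labels.

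Which genotype the D1-named MBD list represents could not be settled. D1 is the name of the null allele, but the MBD libraries titled null cite the WT-named list, and those titled wild type cite the D1-named list. The labels of the whole cell extracts follow the titles. Both lists therefore keep their own names here, and no direction between null and wild type is drawn from either. Each list was called on pooled libraries, so no site has a replicate value and no test across samples was possible. Intervals below are exact 95% binomial (Clopper-Pearson) intervals. They cover counting error only, and they treat sites as independent.

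DNA methylation in mammals falls mostly on cytosines of CpG dinucleotides and is spread across most of the genome, while CpG-dense promoters of active genes usually lack it. The methyl-CpG binding domain of MBD2 holds fragments that carry several methylated CpGs, so a summit marks a place with both CpGs and methylation. Smchd1, a relative of the cohesin and condensin SMC proteins, keeps genes silent on the inactive X chromosome, in Hox and protocadherin clusters and at imprinted loci, and its loss is known to lower CpG island methylation on the inactive X of female cells.

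Promoter sequences are shown to make visible how CpG-rich and CpG-poor the D1-only sites at gene starts were. They run 5′ to 3′ on the gene's strand from 250 bases before to 50 bases after the start, come from RefSeq on GRCm38.p6, and have each CpG (the letters CG, which read the same on both strands) in capitals. The window of the non-coding gene LOC115486982 lies inside the 5′ end of Tomm20 (chr8:126945548-126945847, minus strand) and holds 41 CpGs. The Eif4h window (chr5:134639360-134639659, minus strand) also holds 41 CpGs. The Fam107a window (chr14:8317558-8317857, minus strand) holds 15, the Gm36229 window (chr10:53409632-53409931, plus strand) holds 7, and the Olfr734 window (chr14:50320819-50321118, minus strand) holds 1. The LOC115486982, Fam107a and Gm36229 windows contain the D1-only summit itself, whereas those of Eif4h and Olfr734 lie beside it.
LOC115486982: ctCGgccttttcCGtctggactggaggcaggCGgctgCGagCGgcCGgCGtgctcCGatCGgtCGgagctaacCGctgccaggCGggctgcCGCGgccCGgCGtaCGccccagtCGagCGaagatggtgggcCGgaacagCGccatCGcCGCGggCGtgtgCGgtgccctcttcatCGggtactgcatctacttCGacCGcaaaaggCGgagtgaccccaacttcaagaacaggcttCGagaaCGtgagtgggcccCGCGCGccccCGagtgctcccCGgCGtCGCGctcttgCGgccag
Eif4h: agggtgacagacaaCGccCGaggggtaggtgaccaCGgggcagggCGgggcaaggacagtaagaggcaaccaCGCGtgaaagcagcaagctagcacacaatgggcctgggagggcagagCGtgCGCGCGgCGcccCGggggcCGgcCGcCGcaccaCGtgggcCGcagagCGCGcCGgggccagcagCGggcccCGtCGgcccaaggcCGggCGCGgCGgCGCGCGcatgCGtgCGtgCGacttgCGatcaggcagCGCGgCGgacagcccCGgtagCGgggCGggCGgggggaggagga
Fam107a: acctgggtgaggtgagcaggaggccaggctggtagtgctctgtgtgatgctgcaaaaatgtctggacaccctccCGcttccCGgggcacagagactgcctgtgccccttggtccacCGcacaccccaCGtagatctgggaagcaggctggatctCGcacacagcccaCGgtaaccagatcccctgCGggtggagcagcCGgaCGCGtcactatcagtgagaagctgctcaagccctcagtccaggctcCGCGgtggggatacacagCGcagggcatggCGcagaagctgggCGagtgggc
Gm36229: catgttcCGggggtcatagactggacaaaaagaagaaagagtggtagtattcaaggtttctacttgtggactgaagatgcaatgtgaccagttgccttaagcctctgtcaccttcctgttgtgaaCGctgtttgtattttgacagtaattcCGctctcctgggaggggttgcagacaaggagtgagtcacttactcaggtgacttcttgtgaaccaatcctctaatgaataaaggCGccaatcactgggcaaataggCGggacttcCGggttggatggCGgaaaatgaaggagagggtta
Olfr734: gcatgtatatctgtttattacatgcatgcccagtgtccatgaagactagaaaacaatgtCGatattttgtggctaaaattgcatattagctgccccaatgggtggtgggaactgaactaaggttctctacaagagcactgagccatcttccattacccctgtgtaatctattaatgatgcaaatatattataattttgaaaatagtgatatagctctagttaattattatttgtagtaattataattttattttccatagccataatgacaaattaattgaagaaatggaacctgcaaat

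D1-only sites were low-scoring summits. The score is the authors' −log10 of a MACS2 p-value or q-value, used here to rank summits within a list and to set bands and floors. The same bands were applied to both MBD lists, and whether a score means the same in both is not known. It ranged between 3.62 and 22.0 over the 1094 sites, with a median of 8.96 and quartiles of 7.82 and 10.13. The scores were stepped: only 107 distinct values occurred, and the commonest, 8.96, was shared by 220 sites. The WT-only sites had a median of 9.53 and a highest score of 51.6 in their own list. The shared D1 summits, from the same list as the D1-only sites, had a median of 18.5, quartiles of 11.3 and 32.2 and a highest score of 109. A score of 15 or more was held by 7 D1-only sites (0.640%), and by 76784 shared D1 summits (61.2%).

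From a score of 6 upward, the D1-only share of the D1-named list was smaller in each higher band. Among summits scoring 6 to 8 it was 4.85% (380 of 7830, interval 4.39 to 5.35%). Among those scoring 10 to 12 it was 1.55% (219 of 14118), and among those scoring 15 to 25 it was 0.0214% (7 of 32685, interval 0.00861 to 0.0441%). The WT-only share of the WT-named list was also smaller at high scores, at 34.1% for scores of 6 to 8 and 3.28% for scores of 15 to 25. D1-only sites thus came mainly from the lower-scoring summits of their list. Both lists were called at a threshold of 5e-4, and the depth behind each is unknown.

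**Figure D1:**
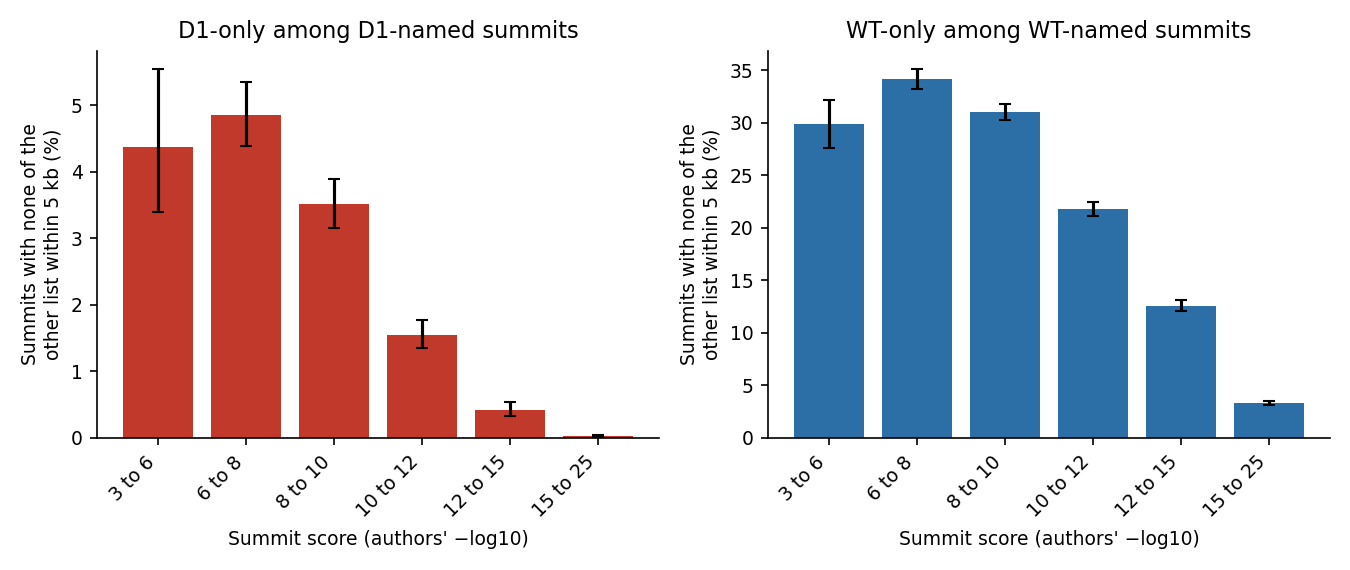
Share of summits with none of the other MBD list within 5 kb, by score, with exact 95% binomial intervals as error bars. Left, D1-only sites among D1-named summits. Right, WT-only sites among WT-named summits, on a larger vertical scale. The D1-only share is 4.85% at scores of 6 to 8 and 0.0214% at 15 to 25. No D1-only site scored above 22.0.

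The 5 kb limit fell inside a continuous run of distances. The median distance to the nearest WT-named summit was 12040.5 bp over the D1-only sites and 10 bp over the shared D1 summits, and the farthest D1-only site lay 324254 bp away. Just inside the limit, 77 D1-only sites at 5004 to 5491 bp had a median score of 8.96. Just outside it, 81 D1-named summits at 4507 to 4995 bp also had a median score of 8.96. The sites also lay apart in their own list, which the rule largely fixes, since most D1-named neighbours have a WT-named summit close by. The next D1-named summit lay a median of 13418.5 bp from a D1-only site and 3078 bp from a shared D1 summit. No other D1-named summit lay within 5 kb of 1076 D1-only sites (98.4%), and the same held for 12243 WT-only sites (83.9%) and 47620 shared D1 summits (37.9%) in their lists. Chained at gaps of up to 10 kb, the D1-only sites formed 13 pairs and 1068 single sites, and the pairs with the highest scores lay 38243 bp from Sema6d, which encodes a semaphorin (scores up to 13.9), in Arhgap26 and Fgf1 (up to 12.9) and in Ltbp2 (up to 12.6).

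Of the 20 highest D1-only sites, 8 lay inside a coding gene and 12 outside. Genes are named for the 20 highest with a coding gene within 10 kb, a condition that favours sites inside genes. Of these, 15 lay inside the gene and 5 beside it. Their scores ran between 13.07 and 22.0, and 8 of them shared the score 13.9. The highest of all, at 10:5161526 with a score of 22.0, lay inside Syne1, which encodes the nuclear envelope protein nesprin-1, 92463 bp from the nearest coding start, Syne1's own, and 12605 bp from the nearest WT-named summit. Other high sites lay in Gramd2 (16.5), in Nup188, a nuclear pore component (16.3), 718 bp from Nr2e3, a nuclear receptor of photoreceptors (15.8), and in Prkcb, a protein kinase C (14.3).

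The rest of the 20 were close together in score. Sptbn1, a spectrin, held a site of score 13.9 that was 38446 bp from the nearest WT-named summit. Neb, the giant muscle protein nebulin, held one of 13.7. Dctn1, a dynactin subunit, held one of 13.07, Ap3b1, an adaptor protein subunit, one of 13.3, and Syt9, a synaptotagmin, one of 13.9. Sites scoring 13.3 to 13.9 also lay in or near Immp2l, Ndfip2, Med13l, Pank1, Aqp1, Meox2, Plekhm1, Wdr64 and Dek. The site in Immp2l, which encodes a mitochondrial protease subunit, was the farthest of the 20 from a WT-named summit, at 44868 bp, and that in Nup188 the nearest, at 5291 bp.

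The HoxA cluster held few MBD summits. Hox genes encode homeodomain factors that give cells their position along the body axis, and in cells that do not express them they are typically covered by Polycomb's H3K27me3. Over the cluster with 20 kb added at each end, the D1-named list held 2 summits, both D1-only, and the WT-named list 1, which was WT-only. The site at 6:52222978, 119 bp from Hoxa9, had a score of 9.60 and was 58432 bp from the nearest WT-named summit. Smchd1 lay 1163 bp from it, and Ctcf 1129 bp in null, 1143 bp in non-silencing wild-type and 1151 bp in untransduced wild-type cells. H3K4me3 lay 1343 bp away in null and 1342 bp away in wild-type cells, and H3K27me3 2366 bp away in null and 2049 bp away in wild-type cells. Each of these marks thus lay beyond the 1 kb used for the counts below.

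The H3K27me3 lists across HoxA held 6 summits in null and 42 in wild-type cells, and the H3K4me3 lists held 4 in null and 3 in wild-type cells. Over all assembled chromosomes the H3K27me3 lists hold 77 summits in null and 732 in wild-type cells. Fewer H3K27me3 summits in the null list is thus not particular to HoxA. Whether these histone summits bear on the MBD summits was not tested. The other clusters gave little. HoxB held 1 D1-only site of 3 D1-named summits, at 11:96212651, 16041 bp from Hoxb13, with a score of 7.82. HoxD held 0 of 1 and HoxC had no D1-named summit.

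A smaller share of D1-only sites than of shared summits lay inside protein-coding genes, and with the lists as deposited the share was near that of WT-only sites. A coding gene contained 464 D1-only sites (42.4%, interval 39.5 to 45.4%), against 44.7% of WT-only sites (43.9 to 45.5%), 60.7% of shared D1 summits (60.5 to 61.0%) and 60.6% of all D1-named summits. The intervals of the D1-only and WT-only shares overlap. A long non-coding gene alone contained 108 D1-only sites (9.87%, interval 8.17 to 11.8%), against 7.58% of WT-only sites (7.16 to 8.02%) and 5.86% of shared D1 summits. Outside all annotated genes lay 496 D1-only sites (45.3%), against 45.9% of WT-only sites and 31.4% of shared D1 summits. Pseudogenes alone held 21 D1-only sites and other features 5. The reference gives gene ends but not exons, so exonic and intronic sites could not be separated.

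Because D1-only sites score low, the same shares were taken over summits scoring 7 to 11. Coding genes then contained 42.9% of 770 D1-only sites (39.3 to 46.4%), 43.0% of 8584 WT-only sites and 53.7% of 22063 shared D1 summits (53.0 to 54.3%). The gap to the shared summits was narrower but its intervals still did not overlap. The share depends on the distance in the rule: with lists 1 kb apart 53.2% of 2301 D1-only sites lay in coding genes, and with lists 10 kb apart 37.5% of 643. With lists of equal length, 37.6% of 5447 D1-only sites lay in coding genes, against 48.6% of 5448 WT-only sites and 61.6% of shared D1 summits, so the likeness to WT-only sites did not hold there. The rule also favours places where the WT-named summits are sparse, so that position in genes and sparseness cannot be told apart here. In all, 467 coding genes held a D1-only site, 444 of them 1 site, 22 of them 2 and Arhgap26 3. These genes had a median length of 130060 bp, against 17170 bp for all coding genes. A long gene has more room for any site, and genes holding any D1-named summit were not measured for length. Whether this contrast is particular to D1-only sites was therefore not tested.

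**Figure D2:**
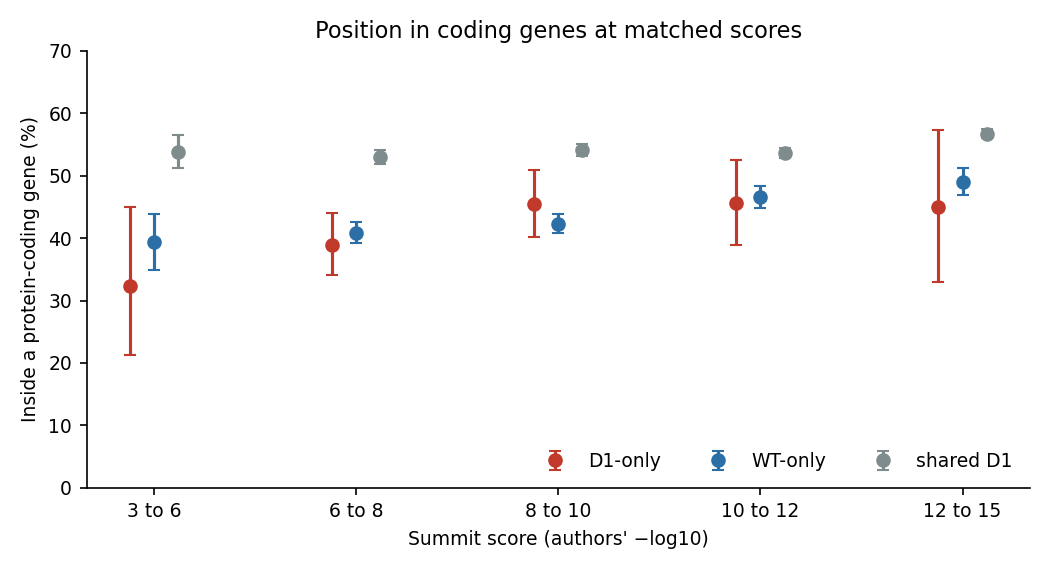
Percent of sites inside a protein-coding gene within bands of the authors' summit score, with exact 95% binomial intervals, for D1-only sites, WT-only sites and shared D1 summits. WT-only sites are banded by scores of the WT-named list, which may not be on the scale of the D1-named list. In the band 6 to 8 the values are 38.9% for D1-only sites, 40.9% for WT-only sites and 53.0% for shared D1 summits. Scores of 15 and over are left out, as only 7 D1-only sites reach them.

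At gene starts the interval of D1-only sites overlapped those of both other groups. Within 2 kb of a coding gene start lay 42 of the 1054 D1-only sites on chromosomes with listed starts (3.98%, interval 2.89 to 5.35%), against 2.89% of WT-only sites (2.62 to 3.18%) and 3.39% of shared D1 summits (3.29 to 3.50%), where all D1-named summits gave 3.4%. Chromosome 18 has no starts in the table used and was left out of these shares. Of these 42 sites, 33 lay 500 bp or more from the start, and the median distance was 1025.5 bp. This was not particular to D1-only sites. The same held for 295 of 407 WT-only sites and 3014 of 4113 shared D1 summits, with median distances of 1025 and 1046 bp. The start's own promoter window held a median of 14 CpGs at D1-only sites, 9 at WT-only sites, 9 at shared D1 summits and 13 over all coding promoters. At least 10 CpGs were found in 26 of the 42 windows (61.9%, interval 45.6 to 76.4%), against 49.9% for WT-only sites (44.9 to 54.8%), 47.0% for shared D1 summits (45.5 to 48.6%) and 56.7% of all coding promoters.

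A summit inside the promoter window itself was rare. Only 8 D1-only sites lay in one, in 9 windows because 2 neighbouring windows shared a site, and Fam107a, an actin-associated protein gene active in glia, was the only coding gene among them. Its site at 14:8317594 had a score of 6.72, lay 13 bp past the start and was 18834 bp from the nearest WT-named summit, and no H3K4me3 summit lay closer than 102945 bp. The Gm36229 site (score 7.82) lay 5 bp before its start. The 9 windows held between 7 and 41 CpGs with a median of 10, against medians of 9 over 64 windows with a WT-only site, 10 over 809 windows with a shared D1 summit and 7 over all 32849 windows.

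H3K4me3, the histone mark of active and poised promoters, stood within 1 kb of 20 D1-only sites (1.83%, interval 1.12 to 2.81%). The share was 1.397% for WT-only sites (1.21 to 1.60%), 0.979% for shared D1 summits (0.925 to 1.04%) and 0.986% for all D1-named summits. The intervals of D1-only and WT-only sites overlap, whereas those of D1-only sites and shared D1 summits do not. At scores of 7 to 11 the shares were 1.82% (0.997 to 3.03%), 1.23% and 1.08% (0.951 to 1.23%), and the D1-only and shared intervals then overlapped. Over all scores, these 2 intervals also overlapped for marks within 500 bp (0.202 to 1.19% and 0.229 to 0.286%). They did not for marks within 2 kb (3.65 to 6.29% and 2.88 to 3.07%). Of the 20 sites, 15 had the mark in both genotypes, 3 in null cells alone and 2 in wild-type cells alone. Their scores had a median of 10.02 and a highest value of 12.6, and 12 of the 20 lay within 2 kb of a coding start.

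Of the 12 sites near both H3K4me3 and a start, 8 lay 500 bp or more from the start. The same held for 67 of 87 such WT-only sites and 455 of 542 such shared D1 summits. Tomm20, a receptor of the mitochondrial import complex, had a site of score 10.25 at 8:126945762, 159 bp past its start, where H3K4me3 lay 43 bp away in null and 85 bp away in wild-type cells. Eif4h, a translation initiation factor, had one of score 9.15 at 5:134639285, 124 bp past its start, with H3K4me3 at 105 bp in null and 92 bp in wild-type cells. Eif4h's own window, shown above, holds 41 CpGs. The window shown at the Tomm20 site is that of LOC115486982, while Tomm20's own holds 24 CpGs. Rasal2, a Ras GTPase-activating protein, had a site of score 5.08, 429 bp before its start, with H3K4me3 at 133 bp in null and 143 bp in wild-type cells. These 3 were the D1-only sites closest to H3K4me3 and were picked out after their values were seen.

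The other sites near H3K4me3 lay farther out. Rps24, a ribosomal protein gene, had a site of score 12.5, 287 bp before the start, with H3K4me3 at 935 bp in null and 467 bp in wild-type cells. Cbr4 and Parp3 had sites of score 11.3 and 11.1, 1041 and 1088 bp past the start. Tmpo, which encodes the lamina-associated polypeptide 2 proteins, had one of score 10.17, 1010 bp before it. Wdr19, a cilium transport component, had one of score 9.91, 1010 bp past it. Syce2, a component of the meiotic synaptonemal complex, had a site of score 10.20 with H3K4me3 at 665 bp in null cells, while the nearest wild-type summit of the mark was 15864 bp away. Pam, a peptide-amidating enzyme gene, had one of score 10.13 inside the gene, and Tmem132c was only the nearest coding gene, 508966 bp off.

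Among the 42 sites within 2 kb of a start, those near H3K4me3 had CpG-richer promoters. At least 10 CpGs were present in 11 of the 12 windows with H3K4me3 within 1 kb (91.7%, interval 61.5 to 99.8%), against 15 of the 30 without it (interval 31.3 to 68.7%), with medians of 22 and 9 CpGs. This difference was not particular to D1-only sites: the same shares were 85.1% and 40.3% for WT-only sites, and 84.3% and 41.4% for shared D1 summits. Olfr734, an olfactory receptor gene, stood at the other end, with a site of score 7.82 that was 421 bp past the start and 257893 bp from H3K4me3.

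**Figure D3:**
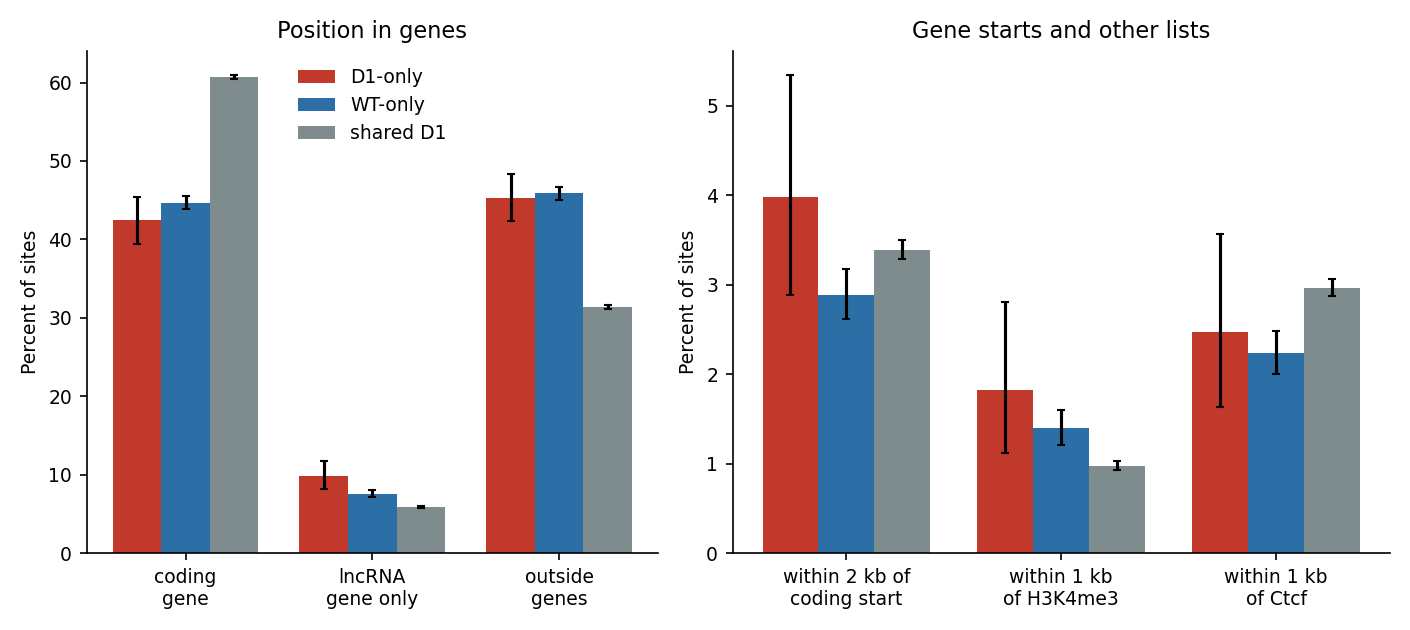
Percent of D1-only sites, WT-only sites and shared D1 summits at each kind of position (left) and near coding gene starts, H3K4me3 of either genotype and Ctcf of any of 3 lists (right, on a smaller vertical scale), with exact 95% binomial intervals. D1-only sites are at 42.4% inside coding genes, as against 60.7% for shared D1 summits, while near starts and Ctcf the D1-only interval overlaps those of both other groups.

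Ctcf, the insulator protein whose binding can be blocked by methylation of its site, lay within 1 kb of 27 D1-only sites (2.47%, interval 1.63 to 3.57%). The share was 2.23% for WT-only sites (2.00 to 2.49%), 2.96% for shared D1 summits (2.87 to 3.06%) and 2.96% for all D1-named summits, so D1-only sites stood near the background. Most rested on a single Ctcf list: 16 sites were near Ctcf in 1 list, 8 in 2 and 3 in all 3. By list, 9 sites were near Ctcf of null cells, 19 near that of non-silencing wild-type cells and 13 near that of untransduced wild-type cells, whose lists hold 11920, 20483 and 8292 summits. The Syne1 site, the highest of all D1-only sites, lay 240 bp from Ctcf in null and 231 bp in non-silencing wild-type cells, with the nearest untransduced summit 156289 bp away.

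Of the next sites near Ctcf by score, that of Ackr3, a chemokine receptor gene, had a score of 12.6 and lay 957 bp before its start with untransduced Ctcf 884 bp off. Nrcam, a neuronal cell adhesion gene, had one of score 10.13, with Ctcf at 611 bp in null and 599 bp in non-silencing wild-type cells. The site of 1700029H14Rik (score 11.3) had non-silencing Ctcf at 445 bp and untransduced Ctcf at 491 bp, against 3264 bp in null cells. Vamp5, Mreg and Ak9 had sites of score 10.77, 10.13 and 9.80 near non-silencing Ctcf only, at 904, 218 and 730 bp. The 10 highest also included sites near Cd82, 30691 bp from Arhgap12 and at 1:7399054, which is described next.

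One D1-only site lay near Smchd1, Ctcf and H3K4me3 together. It stood at 1:7399054, far from coding genes (Pcmtd1 was nearest, at 225426 bp), with a score of 12.6, and the nearest WT-named summit was 44141 bp away. The wild-type Smchd1 summit lay 609 bp off, Ctcf 699 bp in null, 719 bp in non-silencing wild-type and 663 bp in untransduced wild-type cells, and H3K4me3 751 bp in null and 761 bp in wild-type cells. It was the only D1-only site within 1 kb of Smchd1 (0.0914%, interval 0.00231 to 0.508%). WT-only sites gave 0.0411% (0.0151 to 0.0894%), an interval that overlaps it, and all D1-named summits 0.0261%. A second site, 23082 bp from Ptma, had Ctcf of all 3 lists (853, 854 and 871 bp) and H3K4me3 (482 bp in null and 534 bp in wild-type cells) but no Smchd1 nearby.

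H3K27me3 was found at a single D1-only site. Pax2, a transcription factor gene of the midbrain and kidney, held a site of score 8.00 at 19:44761783, 4877 bp from its start and 284 bp from an H3K27me3 summit of wild-type cells. No D1-only site lay within 1 kb of H3K27me3 of null cells (0 of 1094, interval up to 0.337%), and that list holds only 77 summits against 732 in wild-type cells. For either genotype the share was 0.0914% of D1-only sites (interval 0.00231 to 0.508%) and 0.0342% of WT-only sites (0.0111 to 0.0799%), and these intervals overlap. All D1-named summits gave 0.00237%, from 3 summits.

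MicroRNA genes with a D1-only site within 2 kb numbered 3 of 1005 hairpins on RefSeq's list, where 425 had some D1-named summit that close. D1-only sites were 0.864% of all D1-named summits. The 3 hairpins are given to name loci, and nearness to microRNAs is not read as a trait of D1-only sites. The site in Pank1, which encodes a pantothenate kinase of coenzyme A synthesis, lay at 19:34820847, 74 bp from the hairpin of Mir107 (chr19:34820687-34820773, minus strand). Its score was 13.9 and the nearest WT-named summit was 6461 bp away. A site of score 8.96 lay 1687 bp from the hairpin of Mir155 (chr16:84714140-84714204, plus strand), a microRNA of immune cells, and another lay 1865 bp from Mir7009. The main mature forms of the first pair are given as RefSeq lists them, with the seed (bases 2 to 8) in capitals, to name the loci. They share no seed.
mmu-miR-107-3p: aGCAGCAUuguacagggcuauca
mmu-miR-155-5p: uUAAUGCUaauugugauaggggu

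D1-only sites were spread over all chromosomes, with the highest share on X. On X, 37 of 1892 D1-named summits were D1-only (1.96%, interval 1.38 to 2.69%), against 1053 of 124468 on autosomes (0.846%, interval 0.796 to 0.898%). WT-only sites were also more frequent on X, at 20.9% of WT-named summits (19.3 to 22.5%), against 9.14% on autosomes. The spacing of summits also differed. Neighbouring WT-named summits were a median of 33744.5 bp apart on X and 5609 bp apart on autosomes, and the rule favours places where the other list is sparse. The autosomes with the highest D1-only shares, 6 (1.23%) and 1 (1.20%), had spacings of 7418 and 7536 bp, and those with the lowest, 4 (0.559%) and 17 (0.603%), had 4707.5 and 4479 bp. Spacing and share did not rank alike on every chromosome. Y had the widest spacing, 58021 bp, with a D1-only share of 1.48% (4 of 271, interval 0.404 to 3.74%). Its WT-only share was 18.0% (14.1 to 22.6%). Both shares were below those of X, but their intervals overlap those of X. Among autosomes, 14 had the widest spacing, 7900 bp, with a D1-only share of 1.07% (interval 0.789 to 1.41%). The part of spacing in these shares was not tested. The cells are male and have no inactive X.

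**Figure D4:**
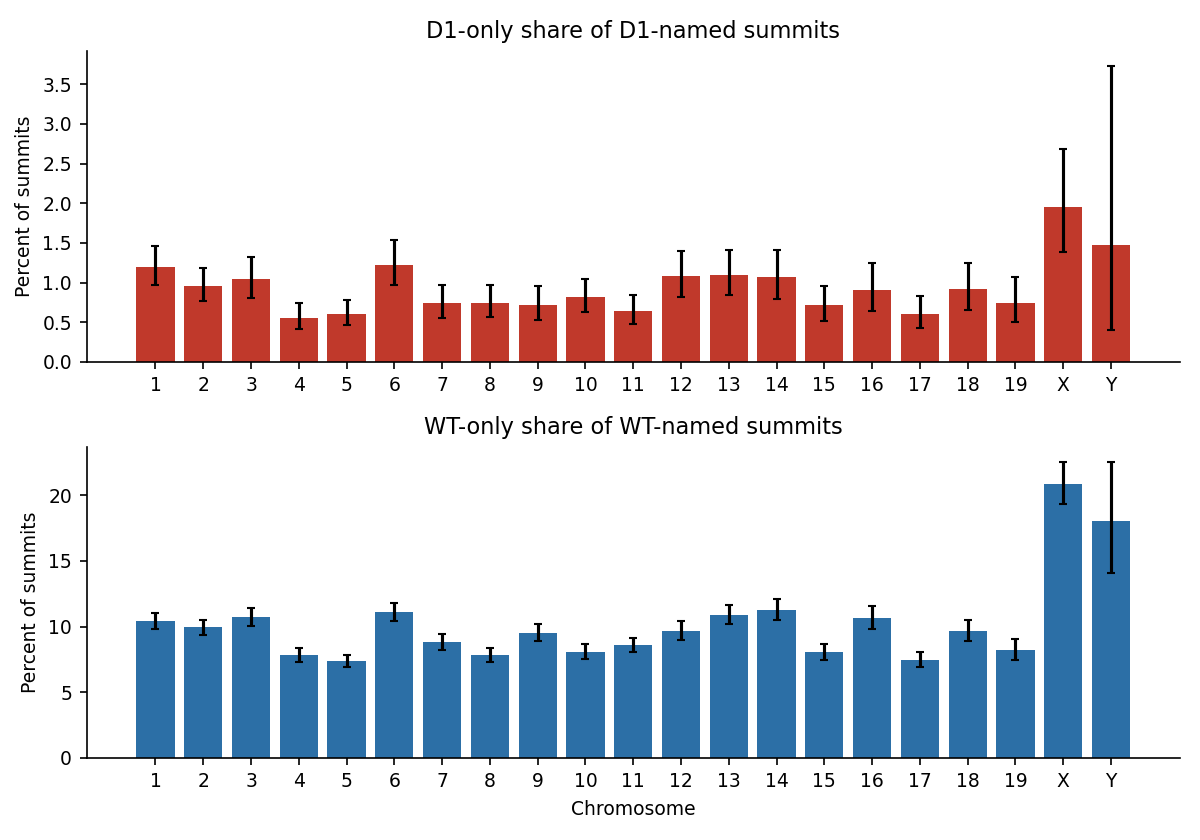
D1-only share of D1-named summits (top) and WT-only share of WT-named summits (bottom, on a larger vertical scale) on each chromosome, with exact 95% binomial intervals. Chromosome X has the highest share in both panels, 1.96% and 20.9%. Y rests on 271 and 338 summits.

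No region gathered many D1-only sites. Of 1792 windows of 1 Mb with at least 20 D1-named summits, 1100 held none, 520 held 1, 143 held 2 and 29 held 3 or more. The most was 4, of 43 D1-named summits, at 6:8000001 to 9000000. The highest share was 3 of 26 summits at 18:8000001 to 9000000 (11.5%), where the WT-only share was equal at 3 of 26.

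D1-only sites were counted in 34 gene lists. Some are tied to Smchd1, to DNA methylation or to cell identity, and others are families such as keratins, serpins and defensins. Counting sites inside a gene or within 2 kb of it, 21 of all 34 lists held none, 9 held 1, 3 held 2 and 1 held more. The share over all D1-named summits was 0.864%. The interval of every list without a site reached above this share, so an empty list is not read as a lack of D1-only sites. Protocadherin alpha genes, which give neurons their surface identity, held 1 of 26 D1-named summits (interval 0.0973 to 19.6%), a site of score 6.19 at 18:37147354, 56753 bp from the nearest WT-named summit, inside the overlapping transcription units of 14 members. The beta and gamma protocadherins held 0 of 28 (interval up to 12.3%) and 0 of 42 (up to 8.41%). Imprinted genes held 1 of 278 (0.360%, interval 0.00911 to 1.99%), a site of score 4.79 in Inpp5f. The Hox list held 2 of 2 (interval 15.8 to 100%), both in HoxA, from only 2 D1-named summits.

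Zinc finger genes of the Zfp family, many of which repress transposons, held 7 of 1156 D1-named summits (0.606%, interval 0.244 to 1.24%), of which 2 were in Zfp521. Neural stem cell genes held 0 of 55 (interval up to 6.49%) and neuron genes 1 of 93, in Rbfox3, the gene of the neuronal marker NeuN (score 6.72). Germ cell genes, several of which are kept silent by promoter methylation, held 1 of 68, in the meiotic cohesin gene Smc1b (8.96). Polycomb genes held 1 of 68, in Ezh1 (11.3), and genes of DNA methylation 0 of 103 (interval up to 3.52%). Developmental regulators held 2 of 72, in Pax2 and in Tbx15 (6.91), a T-box factor of the skeleton. The housekeeping list held 1 of 17, in Sdha (8.00), a subunit of succinate dehydrogenase, with no WT-named summit at that gene and the nearest 29742 bp away. Marker genes of glia, of blood, endothelium and mesenchyme, and of epithelium held 0 of 72, 0 of 53 and 0 of 25.

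At Smchd1 itself 1 D1-only site was found. It lay inside the gene at 17:71352522 with a score of 12.5, and the nearest WT-named summit was 9721 bp away. Between 17:71344489 and 71475366, the D1-named list held 9 summits, of which the other 8 were shared, and the WT-named list held 9. The nearest H3K4me3 summit was 41680 bp from the site in null and 41479 bp in wild-type cells, and no Smchd1, Ctcf or H3K27me3 summit lay within 40 kb.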

How the data were processed

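Data were 11 lists of MACS2 summits on mm10, each 1 bp wide and made from all libraries of a group together. The scores are −log10 values of a p-value or q-value as deposited by the authors, and no label or header says which. Base calling used CASAVA 1.4 and peaks MACS2 (version 2), per the submitters' processing notes. For the aligner, no name is given in the sources used here. MBD and histone summits were called against whole cell extract, Smchd1 against Smchd1 ChIP in null cells and Ctcf against the Ctcf shRNA libraries, per the labels. No per-sample values were used, and depth per library is unknown.

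Distances were taken between summits on assembled chromosomes, and marks counted within 1 kb. Genes, promoter windows (300 bases) and microRNAs came from RefSeq tables of GRCm38.p6, the assembly also named mm10. Of 21883 protein-coding genes, 17491 had a start in the promoter table. Gene names followed a rule: the coding gene nearest the 20 highest sites with one within 10 kb, the 10 highest sites near H3K4me3 and Ctcf, all near Smchd1 or H3K27me3, the 10 top runs and windows, and list genes with a site within 2 kb of their start. Some genes the rule chose are not reported here. Other names, such as list genes with a site elsewhere in the gene, were picked after their values were seen. Sites and gene lists were chosen with earlier results of these data known. Runs chain sites up to 10 kb apart. Python 3.11.15, pandas 2.3.3, numpy 2.4.6, scipy 1.17.1 and matplotlib 3.10.9 were used. Scripts were tested on simulated data: 200 of 200 distance and gene checks and 300 of 300 planted sites were recovered.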

Additional observations from a re-analysis of the deposited data

How the results depend on the processing

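The number of D1-only sites followed the distance in the rule, at 2301 with lists 1 kb apart and 643 with lists 10 kb apart. It was 5447 when the WT-named list was cut to as many of its highest summits as the D1-named list holds, against 5448 WT-only sites under that setting and 1094 and 14599 with the lists as deposited. The share inside coding genes was 53.2%, 37.5% and 37.6% under these 3 settings, lower than that of shared D1 summits in each, while the WT-only share was 52.9%, 41.0% and 48.6%. The share within 2 kb of a coding start became 1.80% within 1 kb, 8.92% within 5 kb and, chosen after seeing the data, 6.58% at either annotated end. The H3K4me3 share became 1.09% with lists 10 kb apart, near the background, 0.548% for marks within 500 bp and 4.84% within 2 kb. The Ctcf share became 0.914% and 5.21%, and the number of sites near Smchd1 0 and 2, for 500 bp and 2 kb. The cause of these moves was not tested beyond the settings' own construction. With lists 1 kb apart, 10 kb apart and of equal length, the start share was 4.05%, 3.05% and 3.43% and the Ctcf share 3.56%, 1.71% and 2.09%. The H3K4me3 share with lists of equal length was 1.32%, against 1.51% of WT-only sites and 0.971% of shared D1 summits. With lists 1 kb apart it was 1.96%, against 1.47% and 0.968%. Under 5 others, which were a D1 score of at least 5, that score in both lists, merged neighbouring summits, no X and Y, and no top windows, there were 1053 to 1106 sites, with 42.3 to 43.1% in coding genes, 4.04 to 4.33% near starts, 1.82 to 2.08% near H3K4me3 and 2.41 to 2.56% near Ctcf. Added after seeing the data, leaving out 1 chromosome at a time gave 999 to 1090 sites, and scores of 7 to 11 gave shares of 42.9%, 4.14%, 1.82% and 2.08%. No paired analysis was possible because each list pools the libraries of its group and carries no replicate. The lists hold no values below the calling threshold, so how many D1-only sites had signal just under it in the other list was not tested.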

Other observations

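On unplaced contigs, which the report leaves out, the D1-named list held 181 summits and the WT-named list 206, and 1 of these D1-named summits had no WT-named summit within 5 kb, with a score of 9.70. The sites that follow were picked after their values were seen. In the immunoglobulin heavy chain locus a D1-only site of score 5.67 lay beside the gene segment Ighv8-11 at 12:115565286, 524 bp from a Ctcf summit of untransduced wild-type cells, while the nearest Ctcf summits of null and non-silencing wild-type cells were 31942 and 39876 bp away. Vomeronasal receptor genes held 2 of 47 D1-named summits as D1-only sites, in Vmn2r29 (7.82) and Vmn2r60 (5.67), the second 76729 bp from the nearest WT-named summit.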
